A study of Mus musculus with 30 samples.

Results

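The genes described here are 10 members of the MHC class I presentation pathway, taken by symbol from the 32285 gene rows of the 4 single-cell libraries. All 10 symbols (H2-K1, H2-D1, B2m, Tap1, Tap2, Tapbp, Psmb8, Psmb9, Psmb10 and Nlrc5) matched a single row in every library. The libraries are droplet RNA profiles of mouse spleen cells from which red blood cells had been depleted, 2 from Smc3-cKO mice and 2 from Smc3-WT mice, made with the Chromium Single Cell 3′ kit at a target of 10000 cells each. The Smc3 protein is part of cohesin, a ring that shapes chromatin into loops, and the series is about cohesin and the myeloid factor PU.1 at super-enhancers; conventional dendritic cells (cDC) are among the cells it profiles. The labels name neither the Cre driver nor the deleted part of Smc3, and an age of 6 to 8 weeks is given for the mice of the sorted-cell samples. The other 26 of the 30 samples were not analysed here. Nothing in the labels ties a library to its own animal, so p-values between genotypes are set only against how far same-genotype libraries differ. Between classes the library was a block, and those p-values set the class difference against its spread over the 4 libraries. Either spread may be technical. The test shares its estimate of spread among genes, so a p-value does not rest on that gene's own libraries alone.

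MHC class I molecules display peptides of cytosolic proteins to CD8 T cells, and most nucleated cells carry them. The immunoproteasome cuts the peptides, the TAP transporter moves them into the endoplasmic reticulum, tapasin and its partners load them onto a heavy chain paired with β2-microglobulin, and the loaded complex travels to the surface. Interferons induce most of these genes, NLRC5 is the transactivator of class I promoters, and cDC1 are the dendritic cells best known for presenting captured antigen on class I.

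H2-K1 and H2-D1, the classical heavy chains, lie on chromosome 17 at 33996012 to 34000619 and 35263094 to 35267497 (build GRCm38.p6). Between them on chromosome 17 stand Psmb9, Tap1, Psmb8 and Tap2, in that order from 34182030 to 34216321, with gaps of 225, 969 and 3024 bases from gene to gene. Tapbp, the tapasin gene, is on the other side of H2-K1 at 33919478 to 33929290. B2m is on chromosome 2 (122147687 to 122153082), and Psmb10 and Nlrc5 are on chromosome 8 (105935728 to 105938392 and 94434335 to 94527272). Promoter windows of 300 bases, 250 before the annotated start and 50 after it, were read from RefSeq on the same build for the 8 members that have one there. The 4 windows given here carry the layout that the heavy chains and B2m share, with Tap1, whose window overlaps that of Psmb9 by 275 bases, for contrast. They are written 5′ to 3′ on the gene's strand. Capitals mark 4 motifs on either strand: GGG, any 2 bases and TTCCC (an NF-kB site, 10 bases), AANNGAAA (the core of an interferon-stimulated response element, ISRE), TGACG (the X2 box) and CCAAT (the Y box). The windows are chr17:34000298-34000597 on the minus strand for H2-K1, and on the plus strand chr17:35262844-35263143 for H2-D1, chr2:122147437-122147736 for B2m and chr17:34187306-34187605 for Tap1. The H2-K1 window lies wholly within the gene bounds given above, which reach 34000619, so its start is inside them. The other windows start at the outer bound of their gene, so distances from the start in H2-K1 are not measured alike.
H2-K1: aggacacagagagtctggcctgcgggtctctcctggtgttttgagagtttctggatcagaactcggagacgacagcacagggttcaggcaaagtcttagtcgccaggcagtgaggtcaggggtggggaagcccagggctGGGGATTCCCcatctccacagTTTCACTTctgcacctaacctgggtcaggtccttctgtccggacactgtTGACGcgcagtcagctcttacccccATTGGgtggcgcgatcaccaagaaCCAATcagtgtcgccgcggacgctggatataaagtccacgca
H2-D1: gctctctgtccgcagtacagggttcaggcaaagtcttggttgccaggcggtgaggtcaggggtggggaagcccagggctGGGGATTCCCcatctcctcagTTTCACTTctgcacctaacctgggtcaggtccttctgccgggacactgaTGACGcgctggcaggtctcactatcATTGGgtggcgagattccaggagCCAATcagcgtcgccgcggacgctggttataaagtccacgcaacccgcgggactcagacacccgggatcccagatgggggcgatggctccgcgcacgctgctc
B2m: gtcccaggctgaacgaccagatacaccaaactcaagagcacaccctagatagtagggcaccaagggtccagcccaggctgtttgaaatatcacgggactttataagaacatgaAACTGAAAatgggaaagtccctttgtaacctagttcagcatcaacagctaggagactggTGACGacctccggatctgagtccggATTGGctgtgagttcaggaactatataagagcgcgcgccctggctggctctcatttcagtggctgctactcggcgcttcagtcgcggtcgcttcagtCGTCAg
Tap1: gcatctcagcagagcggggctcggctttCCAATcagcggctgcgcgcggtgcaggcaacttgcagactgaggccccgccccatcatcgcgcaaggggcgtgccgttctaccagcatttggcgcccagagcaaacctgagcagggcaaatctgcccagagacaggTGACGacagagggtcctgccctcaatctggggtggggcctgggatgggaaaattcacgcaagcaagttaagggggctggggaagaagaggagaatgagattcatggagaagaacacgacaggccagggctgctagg

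The NF-kB letters were in 2 of the 8 member windows, H2-K1 and H2-D1, and in 1.76% of all 32817 windows. The ISRE core was in 3 (H2-K1, H2-D1 and B2m), against 23.9% of all windows. The X2 letters were in 5 and the Y letters in 6 of the 8, against 20.8% and 37.4% of all windows. These counts take the overlapping Tap1 and Psmb9 windows separately, although their X2 match is the same bases on opposite strands, as is their Y match. In H2-K1, H2-D1 and B2m an X2 match was followed after exactly 20 bases by the Y letters on the other strand, a spacing that 31 windows (0.0945%) of 27 genes share, H2-M3 among them. That spacing was read off these windows, so its count is a description. No member window held the letters GAGGAA, the core of PU.1 sites, which 28.3% of all windows hold. A match of letters shows neither binding nor use. The map of motif matches sets the windows side by side.

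**Figure D1:**
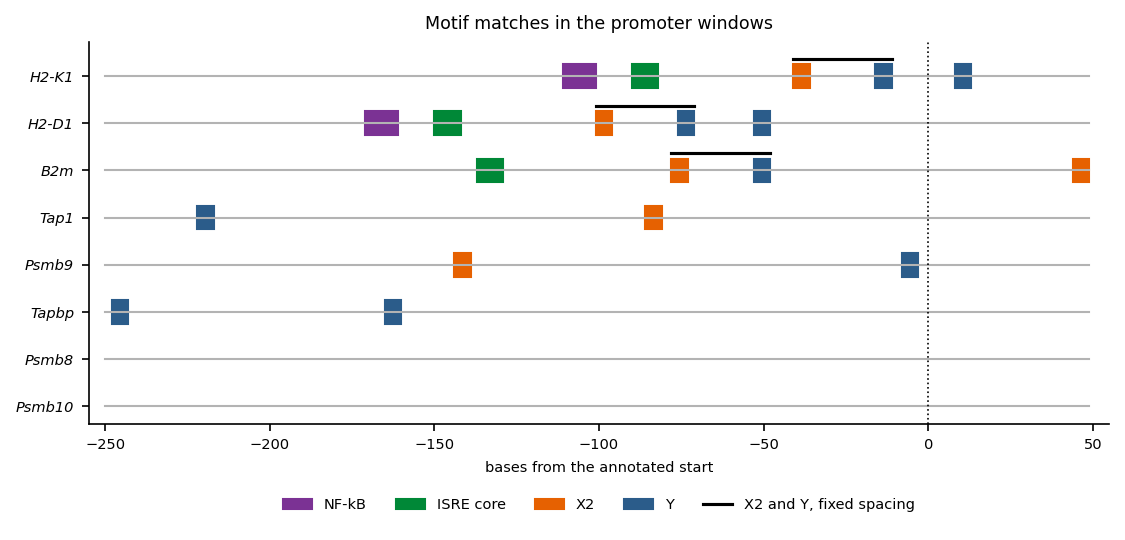
Motif matches in the promoter windows of 8 members, by bases from the annotated start (x axis). For H2-K1 that start lies inside the gene bounds given in the text. Each row is a gene, boxes are matches coloured by motif, and the black line marks an X2 and a Y match 20 bases apart, which H2-K1, H2-D1 and B2m have and the other 5 windows lack.

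The libraries held 40367056 and 46678046 UMIs (Smc3-cKO) and 51299056 and 48970568 UMIs (Smc3-WT), and 38113 of the 44803 cells kept fell into a class defined by marker genes. Between 36 and 61 barcodes were shared by any pair of libraries. The myeloid, B, plasma and NK classes with at least 10 cells in each library each detected all of their own markers in all 4 libraries, except cDC2 with 7 of 8 in Smc3-cKO replicate 1, and B cell markers summed to 9809 to 11530 CPM in B cells (CPM, a gene's UMIs scaled to 1e6 UMIs of its class in that library). These markers were also summed in 11 other classes, a set that left out plasma cells and included erythroid cells, few in Smc3-cKO replicate 2. There they came to 0.131 to 1.79% of their B cell level in the Smc3-cKO libraries and to 0.54 to 5.21% in the Smc3-WT ones. The highest shares were in Smc3-WT replicate 1. That library also had the highest median share of mitochondrial UMIs. Smc3 itself was at 136 and 123 CPM in Smc3-cKO cDC, against 66.9 and 86.4 CPM in Smc3-WT cDC, and in B cells at 103 and 113 CPM against 113 and 111 CPM. In cDC its tags were thus more frequent in the libraries labelled Smc3-cKO. They come from the 3′ end, and since the deleted part is not given, they do not check the labels, so every genotype difference here goes by the labels alone.

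Levels below are CPM, and they compare classes or genotypes for a given gene, never a gene with another. A total of 12 classes had at least 10 cells in each library and were ranked by the mean of the 4 libraries. Of the 10 members, 5 had their highest mean in a dendritic cell class, Tap1, Tap2, Psmb8 and Psmb9 in cDC1 and Tapbp in plasmacytoid dendritic cells (pDC). The share of all genes that are highest in such a class was not counted. H2-D1 and B2m were highest in nonclassical monocytes, Psmb10 in classical monocytes, H2-K1 in NK cells and Nlrc5 in CD8 T cells. Not every library had these leaders. For Tap1, cDC2 led in Smc3-cKO replicate 2 and pDC in Smc3-WT replicate 1. For Tap2, cDC1 led in both Smc3-WT libraries, but CD4 T cells and plasma cells led in Smc3-cKO replicates 1 and 2. For Psmb8, nonclassical monocytes led in Smc3-WT replicate 1. The ranges of libraries overlapped between nearly all neighbours in these orders, in 11 of 11 neighbouring pairs for 9 members and in 10 of 11 for H2-K1, where the step from cDC1 to neutrophils did not overlap. Class totals ran from 64328 to 25378149 UMIs, and 46 of the 480 values behind the order rest on under 10 UMIs.

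**Figure D2:**
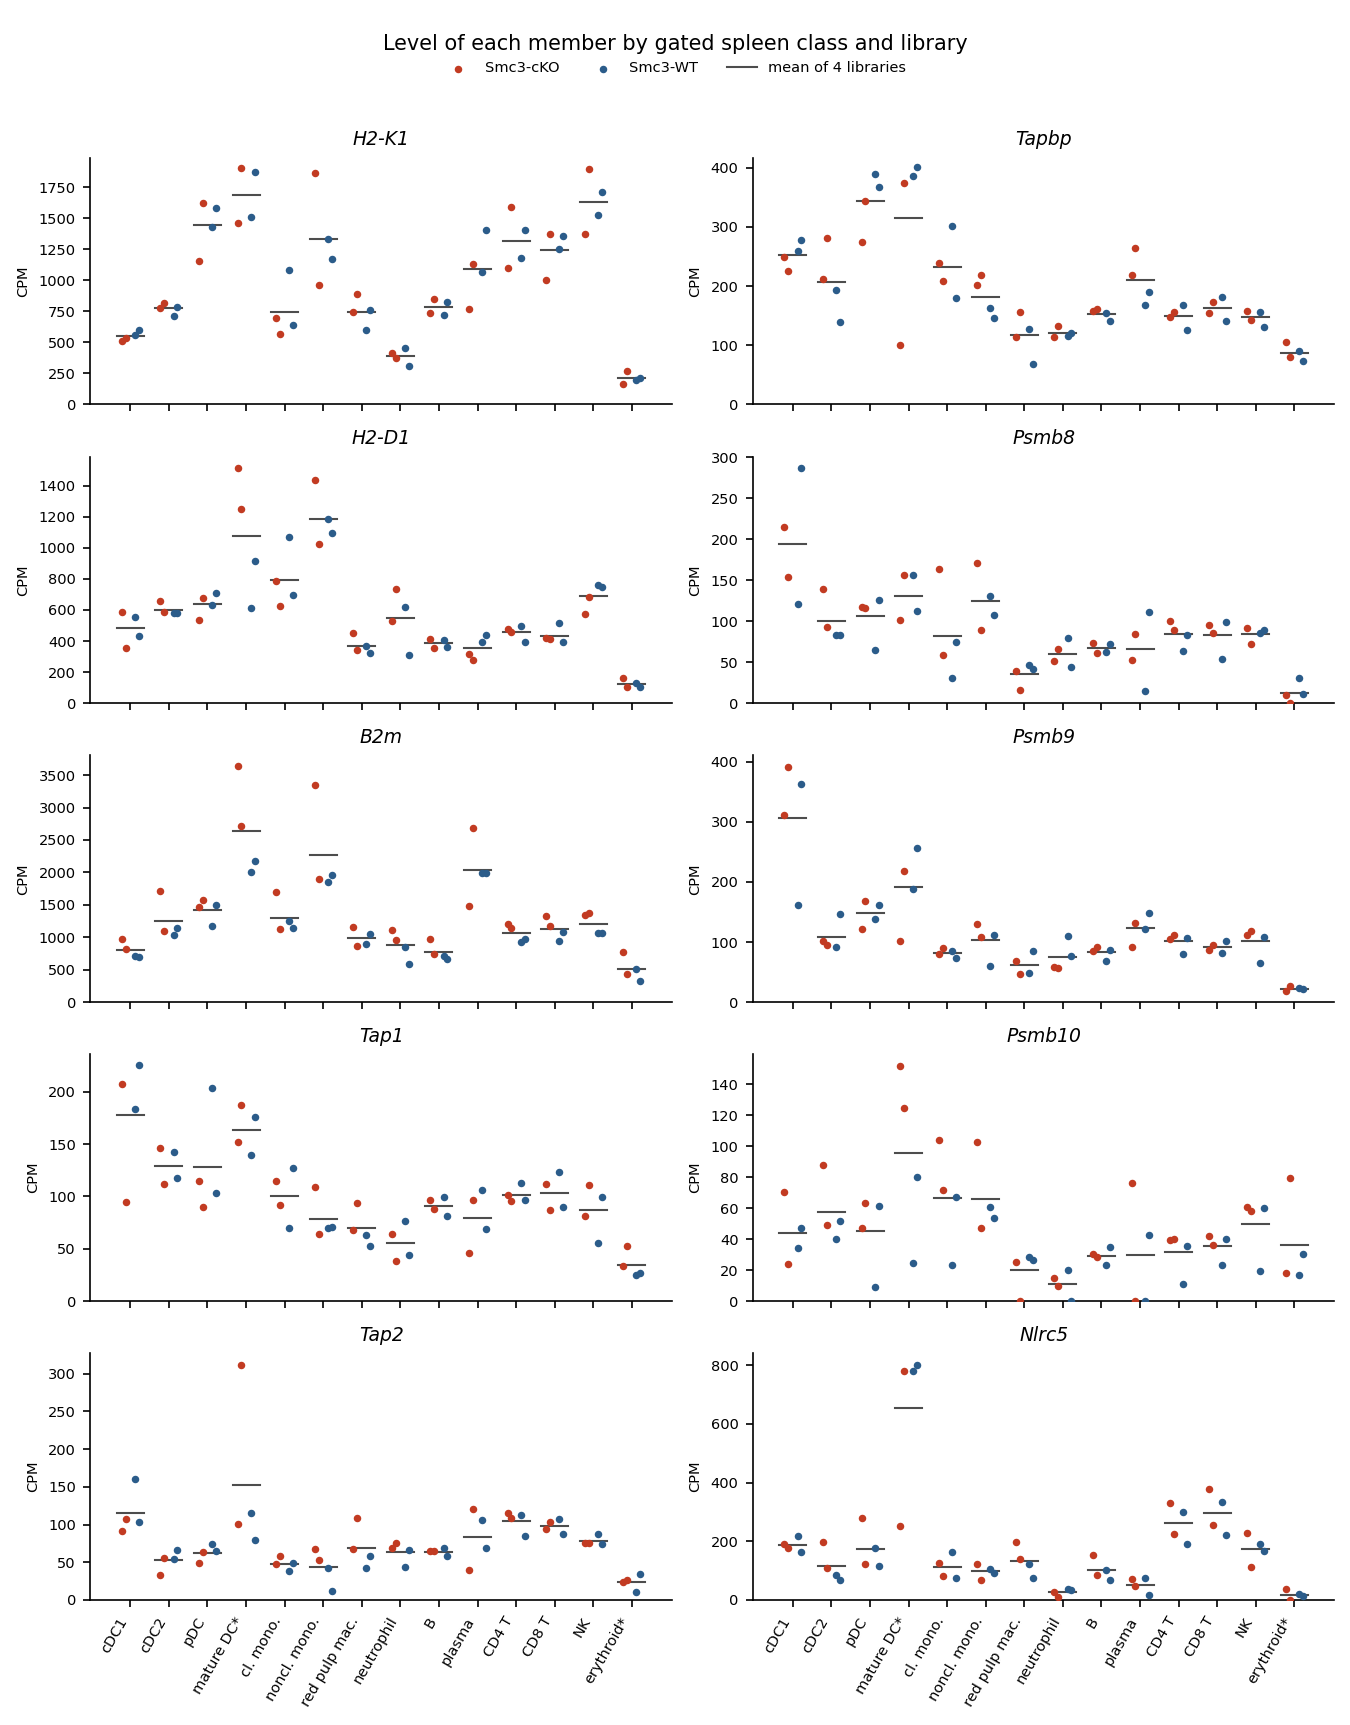
CPM of each of the 10 genes (y axis, from 0, its own scale per panel) by gated spleen class, with a point per library, Smc3-cKO left and Smc3-WT right, and a bar at the mean of 4 libraries. Classes with an asterisk have under 10 cells in a library (mature DC 5 and 4 in Smc3-cKO, erythroid 2 in Smc3-cKO replicate 2) and were not ranked; among the 12 ranked classes Psmb9 is highest in cDC1 in all 4 libraries and Nlrc5 in CD8 T cells, while mature DC exceed CD8 T cells for Nlrc5 in 3 libraries.

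H2-K1 averaged 1628 ± 225 CPM in NK cells, 1449 ± 209 in pDC and 1333 ± 388 in nonclassical monocytes (SD, n = 4 libraries, as in the other means by class). Its means were 1319 CPM in CD4 and 1248 CPM in CD8 T cells, and lowest in cDC1 (551.7 ± 37.8) and neutrophils (388 ± 63.4). The mean in cDC1 was thus below that of the other ranked classes except neutrophils, while for H2-D1 cDC1 lay in the middle of the order, with 482.5 ± 107 CPM. H2-D1 averaged 1185 ± 178 CPM in nonclassical monocytes and 793.7 ± 196 in classical monocytes, and its lowest mean was in plasma cells (356.7 ± 74.2). Both heavy chains have relatives in the H2-Q and H2-T regions, and how alike the sequences are was not measured. How any reads shared between these genes were counted is not given in the sources used here, so the heavy chain levels are uncertain to that extent.

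B2m, the light chain of every class I molecule, averaged 2268 ± 724 CPM in nonclassical monocytes and 2035 ± 496 CPM in plasma cells. In Smc3-cKO replicate 1 nonclassical monocytes led with 3352 CPM, and in the other 3 libraries plasma cells did, so the first place rests on that library. B cells had the lowest mean, 770.6 ± 138 CPM, next to cDC1 with 800.9 ± 130 CPM.

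Tap1 and Tap2 encode the chains of the peptide transporter. Tap1 was at 207 and 94.95 CPM in Smc3-cKO cDC1, against 184 and 226 CPM in Smc3-WT cDC1, and its means in cDC2 (129 ± 17.2) and pDC (128 ± 51.5) came next. Tap2 was at 91.1 and 107 CPM in Smc3-cKO cDC1 and at 161 and 103 CPM in Smc3-WT cDC1, with CD4 T cells (105 ± 14.2) and CD8 T cells (98.05 ± 8.96) following. The transporter chains thus parted in cDC2, which came next to cDC1 for Tap1 and above only the monocyte classes for Tap2 (52.3 ± 13.9). Among the ranked classes Tapbp led in pDC in all 4 libraries, with 275 and 343 CPM in Smc3-cKO pDC and 389 and 367.5 CPM in Smc3-WT pDC, and cDC1 followed at 252.5 ± 21.6 CPM.

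Psmb8, Psmb9 and Psmb10 encode the catalytic subunits that replace the constitutive ones in the immunoproteasome. Psmb9 was at 311 and 392 CPM in Smc3-cKO cDC1, against 161 and 362 CPM in Smc3-WT cDC1. The highest value in any other ranked class was 169 CPM, in Smc3-cKO replicate 2 pDC, so the cDC1 of Smc3-WT replicate 1 lay within the pDC range and the other 3 above it. Psmb8 was at 215 and 154 CPM in Smc3-cKO cDC1 and at 121 and 287 CPM in Smc3-WT cDC1, and red pulp macrophages had the lowest mean of both (62.1 ± 17.7 for Psmb9 and 35.99 ± 13.9 for Psmb8). Psmb10 did not share the cDC1 peak. Its means were 66.5 ± 33.2 CPM in classical and 66.1 ± 25.1 CPM in nonclassical monocytes, 43.9 ± 20.1 in cDC1 and 10.99 ± 8.46 in neutrophils. It had 0 UMIs in 4 values, which at 3 counts allow up to 46.6 CPM in red pulp macrophages and 36.1 CPM in plasma cells of Smc3-cKO replicate 2, 45.6 CPM in plasma cells of Smc3-WT replicate 1 and 32.9 CPM in neutrophils of Smc3-WT replicate 2. These limits cover counting error only.

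Nlrc5, the transactivator, was highest among the 12 ranked classes in CD8 T cells in all 4 libraries, with 378 and 257 CPM in Smc3-cKO and 334 and 223 CPM in Smc3-WT. CD4 T cells (262 ± 64.0) and cDC1 (187.9 ± 22.9) followed, and plasma cells (52.6 ± 27.2) and neutrophils (26.5 ± 11.96) were lowest. Mature DC, outside the order, had 253 and 780 CPM in Smc3-cKO and 780 and 801 CPM in Smc3-WT, from 5 and 4 cells in Smc3-cKO and 28 and 12 in Smc3-WT. Its highest ranked class stood 11.25-fold over its lowest, the widest span of the 10, and Tap2 had the narrowest at 2.65-fold. In 9 of the 12 ranked classes replicate 1 of each genotype was above both replicates 2, the exceptions being cDC2, red pulp macrophages and neutrophils.

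**Figure D3:**
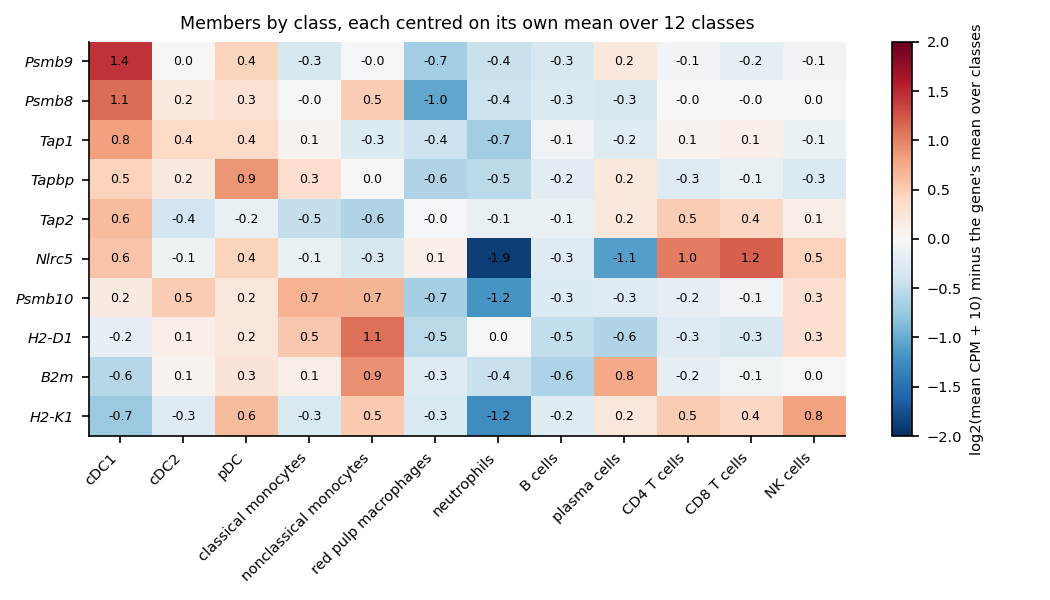
Level of each gene (rows) in 12 classes (columns) as log2(mean CPM + 10) minus the gene's own mean over the classes, red above and blue below. Psmb9, Psmb8 and Tap1 peak in cDC1, H2-D1 and B2m in nonclassical monocytes, and Nlrc5 in T cells, with its lowest value in neutrophils.

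Over the 12 class means, on the log2(CPM + 10) scale, Psmb8 and Psmb9 were the most alike members, with a Pearson r of 0.843, followed by Tap1 with Psmb9 (0.79) and Tap1 with Psmb8 (0.764). These 3 stand next to each other on chromosome 17, and Tap2, beside Psmb8, had an r of 0.153 with it. H2-D1 and Tap2 were the least alike (-0.637), and H2-K1 with H2-D1 reached 0.233. Of 4126 other genes at 50 CPM or more, the 4 most like the mean of the members were Rbx1 (0.906), Fam192a (0.883), Cct5 (0.878) and Rpl10 (0.864). Psme1, a subunit of the proteasome activator PA28, was the most like Psmb8 (0.924). All points share the 4 libraries, so these values are descriptions.

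Classes were compared within libraries, with edgeR's quasi-likelihood test on summed UMIs, the library as a block and Benjamini-Hochberg adjustment over all genes tested. cDC1 over cDC2 gave 4 members higher and 1 lower, where 21.3% of all 4652 genes passed in either direction (9.95% higher and 11.3% lower), and the median log2 change was 0.54 over the members and 0.03 over all genes. Psmb9 was higher in 4 of 4 libraries. Its cDC2 level was 102 and 94.4 CPM in Smc3-cKO and 91.05 and 147 CPM in Smc3-WT, all below its cDC1 values given above, for a log2 change of 1.57 (SE 0.22, adjusted p = 1.01e-06). Tap2 was at 32.9 and 56.1 CPM in Smc3-cKO cDC2 and at 54.6 and 65.7 CPM in Smc3-WT cDC2, again with no overlap with cDC1 (1.23, SE 0.29, adjusted p = 0.00136). Psmb8 rose by 1.09 (SE 0.25, adjusted p = 0.00127) and Nlrc5 by 0.89 (SE 0.26, adjusted p = 0.0102), the first in 4 and the second in 3 of 4 libraries, and in both the ranges of the classes overlapped. B2m fell by 0.52 (SE 0.18, adjusted p = 0.0365), with 978 and 819 CPM in Smc3-cKO cDC1 and 707 and 700.4 CPM in Smc3-WT cDC1, against 1711 and 1101 CPM in Smc3-cKO cDC2 and 1034 and 1148 CPM in Smc3-WT cDC2. H2-K1 was below cDC2 in 4 of 4 libraries without overlap and did not pass (-0.37, SE 0.19, adjusted p = 0.17). Smc3-cKO replicate 2 holds 11 cDC1, so its values rest on few cells. Without Smc3-WT replicate 2, Psmb8 (adjusted p = 0.101), Nlrc5 (0.119) and B2m (0.139) no longer passed, Nlrc5 did not without Smc3-WT replicate 1 (0.116), and B2m did not without Smc3-cKO replicate 1 (0.125). DESeq2 gave 0.0661 for Nlrc5 and 0.111 for B2m. B2m was also lost with the looser gate (0.112), with doublets kept (0.0538) and with cells added by neighbours (0.103), and so kept its call in 5 of 11 alternatives.

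Among the wider pathway, cDC1 over cDC2 gave 3 of 3 tested genes of the proteasome activator and maturation list higher: Psme1 (0.95) and Psme2 (1.07), the PA28 subunits, and Pomp (1.02), an assembly factor. Psme2 was at 149 and 237 CPM in Smc3-cKO cDC1 and at 74.7 and 277 CPM in Smc3-WT cDC1, and at 117 and 68.4 CPM in Smc3-cKO cDC2 and 98.3 and 87.0 CPM in Smc3-WT cDC2. In Smc3-WT replicate 1 it was lower in cDC1 than in cDC2, unlike the other 3 libraries. Of 7 tested loading and trimming genes 4 were higher and 0 lower, with Hspa5 (1.23), Calr (1.17) and Pdia3 (1.15), chaperones of the endoplasmic reticulum, in the lead. Of the constitutive subunits Psmb7 was higher (1.04) and the other 2 did not pass. The cross-presentation list had 3 higher and 2 lower of 7, with Wdfy4 (1.81), a factor needed by cDC1 for presenting cell-bound antigen, and Rab43 (1.69) up and Cybb (-4.63), an NADPH oxidase subunit, down.

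All cDC over B cells gave 8 members higher and 0 lower, against 37.5% of 12466 genes in either direction (20.7% higher and 16.8% lower), with a median of 0.60 over the members and -0.02 over all genes. Psmb9 (0.99, SE 0.16, adjusted p = 0.000665), Psmb8 (0.94, SE 0.14, adjusted p = 0.000386), Psmb10 (0.89, SE 0.19, adjusted p = 0.00339) and Tap1 (0.73, SE 0.14, adjusted p = 0.00178) were higher in 4 of 4 libraries with no overlap. For Psmb8 the levels were 175 and 99.3 CPM in Smc3-cKO cDC and 98.1 and 139 CPM in Smc3-WT cDC, against 73.3 and 61.3 CPM in Smc3-cKO B cells and 63.0 and 72.5 CPM in Smc3-WT B cells. H2-D1 (0.62), Tapbp (0.58), B2m (0.55) and Nlrc5 (0.46) also passed. H2-K1 was the exception among the surface chains, with 653 and 789 CPM in Smc3-cKO cDC and 653 and 735 CPM in Smc3-WT cDC, against 733 and 846 CPM in Smc3-cKO B cells and 721 and 827 CPM in Smc3-WT B cells. It was lower in cDC in 4 of 4 libraries by a small margin (-0.10, SE 0.11, 95% interval -0.34 to 0.14, adjusted p = 0.517). Without Smc3-cKO replicate 2 the adjusted p was 0.0516 for B2m, 0.0696 for Tapbp and 0.104 for Nlrc5, leaving 5 members past the threshold. Nlrc5 also missed it without Smc3-WT replicate 2 (0.0879) and with no filter on low counts (0.2). As background for the comparison, all 6 class II genes were higher in cDC, and of the other class I heavy chains 2 were higher and 5 lower of 10 tested, with Mr1 (-2.57), H2-Q6 (-1.44) and H2-T24 (-0.76) lowest.

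pDC over all cDC gave 2 members higher and 0 lower, against 30.7% of 6505 genes in either direction (14.6% higher and 16.1% lower), with medians of -0.04 over the members and -0.02 over all genes. H2-K1 was at 1160 and 1621 CPM in Smc3-cKO pDC and at 1434 and 1581 CPM in Smc3-WT pDC, above every cDC value (log2 change 0.996, SE 0.16, adjusted p = 0.000113). Tapbp was at 229 and 275 CPM in Smc3-cKO cDC and at 218 and 177 CPM in Smc3-WT cDC, all below its pDC values, of which the lowest was 275.2 CPM (0.58, SE 0.18, adjusted p = 0.0243). Its call was lost without Smc3-WT replicate 1 (0.0828) or replicate 2 (0.247), with DESeq2 (0.105), with the looser gate (0.0699) and with no filter on low counts (0.0542). Beside H2-K1, 5 of 7 tested other heavy chains were higher in pDC, led by H2-Q7 (2.37), H2-Q4 (1.73) and H2-Q6 (1.64). Whether H2-K1 and the H2-Q genes share reads was not tested. All 6 class II genes went the other way, with H2-Eb1 (-3.30), H2-Ab1 (-2.66) and H2-Aa (-2.27) the largest. Of 7 interferon receptor and kinase genes 2 were higher and 3 lower in pDC, with Ifnar1 (1.47), a chain of the type I interferon receptor, up and Ifngr1 (-3.54), the ligand-binding chain of the interferon-gamma receptor, and the kinase gene Jak2 (-1.36) down.

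Mature DC, the Ccr7 cells that move to T cell zones, were too few under the main gate. They were compared with cDC under a looser gate chosen after the cell numbers were seen, with 13 and 10 cells in Smc3-cKO and 42 and 14 in Smc3-WT. Mature DC over all cDC gave 3 members higher and 0 lower, against 17.5% of 5229 genes in either direction (8.15% higher and 9.33% lower), with medians of 0.69 over the members and -0.23 over all genes. Nlrc5 was at 199 and 555 CPM in Smc3-cKO mature DC and at 630 and 776 CPM in Smc3-WT mature DC, against 190.2 and 119.5 CPM in Smc3-cKO cDC and 133 and 94.0 CPM in Smc3-WT cDC (2.09, SE 0.39, adjusted p = 3.29e-05). The lowest mature DC value, in Smc3-cKO replicate 1, was just above the highest cDC value, and that library's mature DC had a median of 803 UMIs per cell. Tapbp, Psmb8 and Psmb9 stood there at the same 198.6 CPM as Nlrc5, so this margin rests on few UMIs. H2-K1 (1.23, SE 0.32, adjusted p = 0.00291) and B2m (1.17, SE 0.31, adjusted p = 0.00368) were higher in 4 of 4 libraries with no overlap. Gbp5 (4.10), Irf1 (2.49), Psme2 (2.08) and H2-Q6 (1.94) rose and all 6 class II genes fell, Ciita (-2.87), the class II transactivator, with them.

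Nonclassical over classical monocytes gave 3 members higher and 0 lower, against 21.2% of 5187 genes in either direction (10.5% higher and 10.8% lower), with medians of 0.21 over the members and -0.01 over all genes. The 3 encode the chains of the surface complex. B2m was at 3352 and 1897 CPM in Smc3-cKO and 1859 and 1965 CPM in Smc3-WT nonclassical monocytes, against 1695 and 1132 CPM in Smc3-cKO and 1248 and 1143 CPM in Smc3-WT classical monocytes (0.79, SE 0.15, adjusted p = 0.000183). H2-K1 (0.87, SE 0.16, adjusted p = 0.000168) and H2-D1 (0.63, SE 0.15, adjusted p = 0.0023) were higher in 4 of 4 libraries too, with overlapping ranges. H2-D1 did not pass without Smc3-cKO replicate 1 (0.0728). Psmb8 (0.45, 95% interval 0.02 to 0.89, adjusted p = 0.141) and Psmb9 (0.42, 95% interval 0.008 to 0.84, adjusted p = 0.152) missed the threshold, and Psmb9 passed without Smc3-WT replicate 1 (0.53, adjusted p = 0.0466). The intervals of Tap1 (-0.33), Tap2 (0.00), Tapbp (-0.26), Psmb10 (-0.11) and Nlrc5 (-0.12) include 0.

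CD8 over CD4 T cells gave 1 member higher and 0 lower, Nlrc5, against 19.1% of 10142 genes in either direction (9.63% higher and 9.47% lower), with medians of 0.03 over the members and 0.01 over all genes. Its CD4 T cell level was 329 and 225 CPM in Smc3-cKO and 301 and 192 CPM in Smc3-WT, below the CD8 level of the same library in 4 of 4 libraries and overlapping across libraries (0.22, SE 0.06, adjusted p = 0.00873). Nlrc5 missed the threshold when replicate 2 of Smc3-cKO (0.0521) or of Smc3-WT (0.084) was left out and with DESeq2 (0.189), while B2m passed as another member without Smc3-WT replicate 1 (0.13, adjusted p = 0.0295). NK over CD4 T cells gave 2 members higher and 2 lower, against 32.3% of 8108 genes in either direction (15.2% higher and 17.1% lower), with medians of -0.04 over both the members and all genes. H2-D1 was at 576 and 683 CPM in Smc3-cKO and 757 and 749 CPM in Smc3-WT NK cells, all above the CD4 values of 396 to 494 CPM (0.56, SE 0.11, adjusted p = 0.000789). Psmb10 was also higher (0.60, SE 0.19, adjusted p = 0.0258), and Nlrc5 (-0.61, SE 0.12, adjusted p = 0.000811) and Tap2 (-0.46, SE 0.14, adjusted p = 0.0178) were lower in 4 of 4 libraries. Psmb10 lost its call when Smc3-cKO replicate 1 (0.0615), Smc3-cKO replicate 2 (0.0551) or Smc3-WT replicate 2 (0.0752) was left out and with DESeq2 (0.103), and Tap2 without Smc3-cKO replicate 1 (0.163) or 2 (0.0682), with DESeq2 (0.173), the looser gate (0.0741), 5% mitochondrial UMIs (0.103) and added neighbours (0.0543). H2-K1 was near the threshold (0.27, adjusted p = 0.0542) and passed under 8 alternatives.

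Plasma over B cells gave 4 members higher and 1 lower, against 27.8% of 11758 genes in either direction (10.8% higher and 17% lower), with medians of 0.54 over the members and -0.26 over all genes. B2m was at 1476 and 2684 CPM in Smc3-cKO and 1991 and 1987 CPM in Smc3-WT plasma cells, against 971 and 737 CPM in Smc3-cKO and 718 and 657 CPM in Smc3-WT B cells (1.63, SE 0.20, adjusted p = 1.08e-14). No plasma cell library overlapped a B cell one, and the call held without each library in turn. Psmb9 (0.76, SE 0.26, adjusted p = 0.0168), Tapbp (0.71, SE 0.23, adjusted p = 0.00764) and H2-K1 (0.70, SE 0.20, adjusted p = 0.00249) were higher in 4 of 4 libraries, and Nlrc5 was lower in 4 of 4 (-0.85, SE 0.32, adjusted p = 0.0319). With library totals in place of TMM scaling, H2-K1 (0.0569), Tapbp (0.0969) and Psmb9 (0.12) missed the threshold. Without Smc3-WT replicate 2 H2-K1 (0.0923), Tapbp (0.0657), Psmb9 (0.195) and Nlrc5 (0.312) did. Without Smc3-cKO replicate 1 Tapbp (0.0843) and Nlrc5 (0.236) did, and Nlrc5 also with DESeq2 (0.204) and the looser gate (0.224), and Psmb9 with no filter on low counts (0.0501). Of the 8 loading and trimming genes 6 were higher, led by Hspa5 (3.30), Calr (2.44) and Pdia3 (2.43), and all 6 class II genes were lower.

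Erythroid cells lose their nucleus as they mature. They were compared with B cells in the 3 libraries that hold more than 2 of them, a choice made after the cell numbers were seen. Erythroid over B cells gave 7 members lower and 0 higher, against 52.3% of 12825 genes in either direction (24% higher and 28.3% lower), with medians of -1.51 over the members and -0.19 over all genes. Nlrc5 was at 39.1 CPM in Smc3-cKO replicate 1 and at 19.8 and 12.96 CPM in Smc3-WT erythroid cells (-2.05, SE 0.24, adjusted p = 0.000937), and H2-K1 at 165 CPM in Smc3-cKO and 193 and 214 CPM in Smc3-WT erythroid cells (-1.87, SE 0.25, adjusted p = 0.00149). B2m was lower in 3 of 3 libraries and did not pass (-0.46, SE 0.29, 95% interval -1.17 to 0.25, adjusted p = 0.234), with 773 CPM in Smc3-cKO and 515 and 332 CPM in Smc3-WT erythroid cells. It passed without Smc3-WT replicate 1 (-0.71, adjusted p = 0.0432), Tapbp did so there too (-0.79, adjusted p = 0.0295), and Psmb8 did not without Smc3-WT replicate 2 (-1.66, adjusted p = 0.0905).

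**Figure D4:**
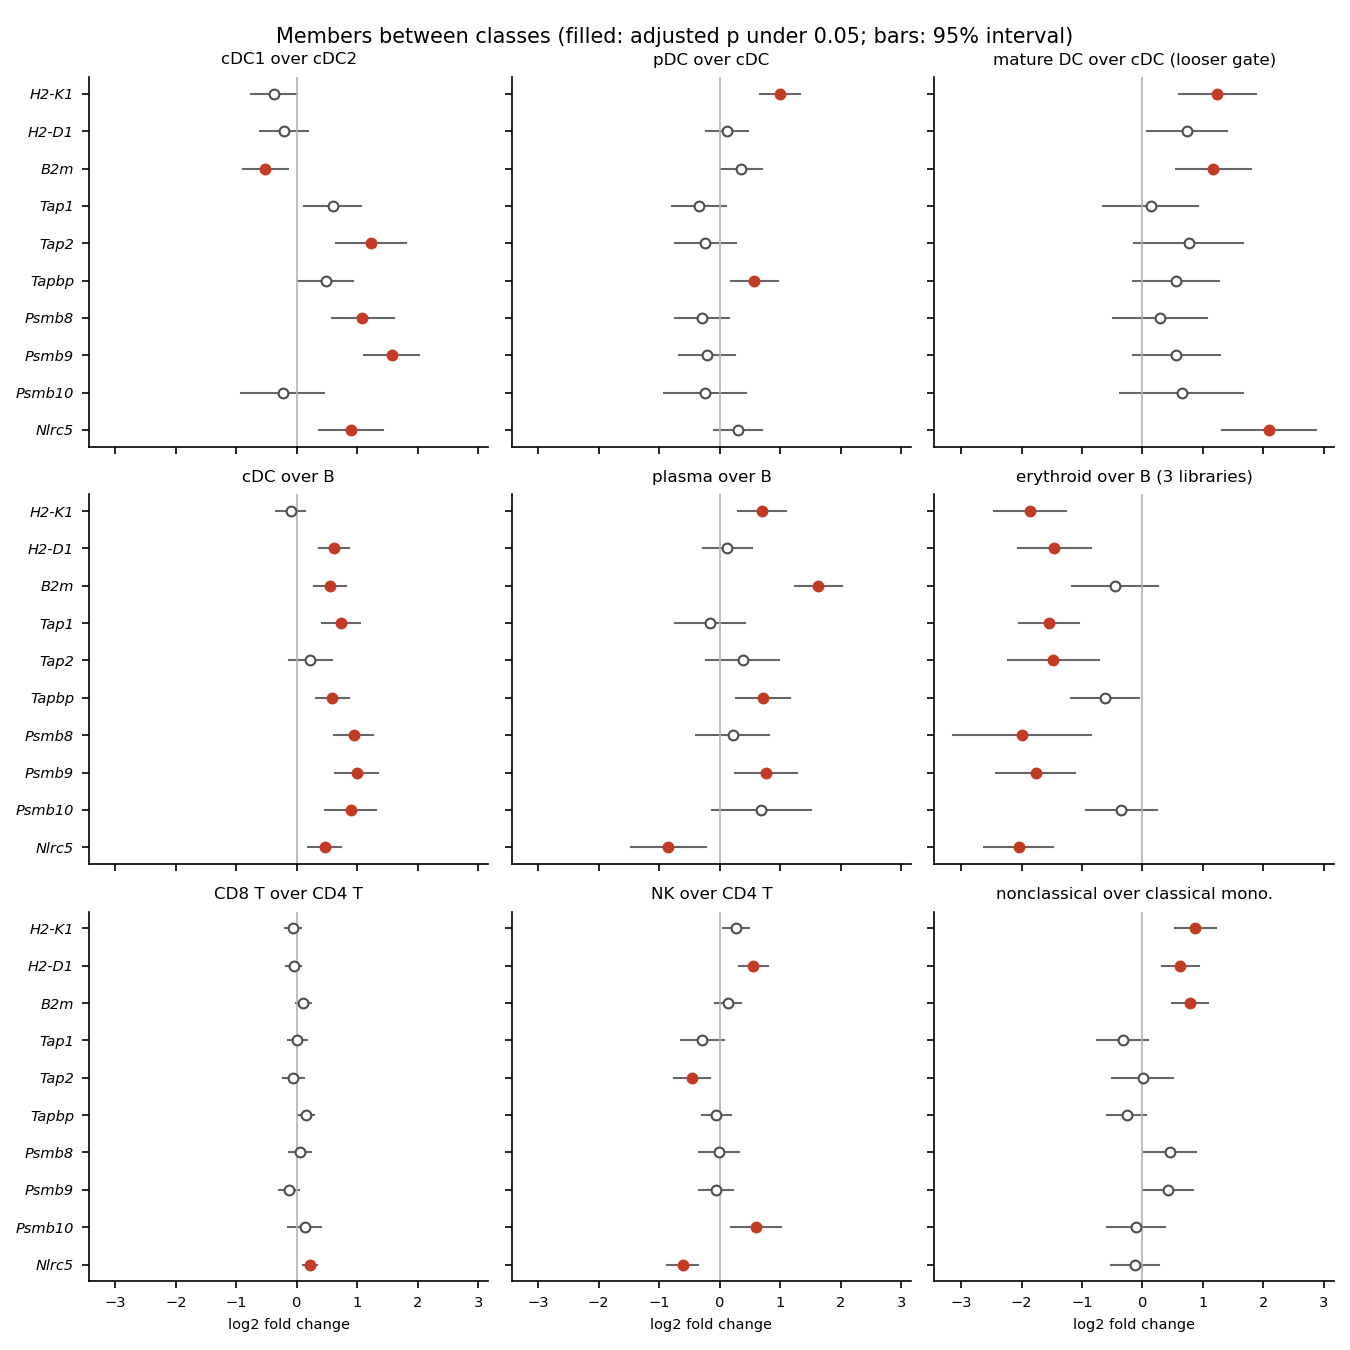
Log2 fold change of each gene (rows) in 9 pairs of classes (panels, first-named over second-named), with 95% intervals; filled points have an adjusted p under 0.05. Psmb9, Tap2, Psmb8 and Nlrc5 are higher past the threshold in cDC1 over cDC2, as are 8 genes in cDC over B cells, and 7 are lower past it in erythroid over B cells, where all 10 lie below 0.

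Between genotypes, 0 members passed in any class by edgeR's quasi-likelihood test, in 11 comparisons with at least 20 cells in each library and in cDC1 at a minimum of 10 cells, chosen after the cell numbers were seen. Of the 116 member values in these 12 comparisons, 2 reached an unadjusted p under 0.05, and by DESeq2 the number called was 0. Few genes of any kind passed: 0.937% in cDC2 (0.156% higher and 0.781% lower), 0.0646% in all cDC (0.0129% higher and 0.0517% lower), 0.0601% in NK cells, 0.0799% in red pulp macrophages, 0.0198% in nonclassical monocytes and 0 in the other 7. The difference in the genotype effect between all cDC and B cells was tested directly and 0 members passed, 0 at an unadjusted p under 0.05 and 0 by DESeq2, against 0.714% of genes (0.257% higher and 0.457% lower). A missed threshold with 2 libraries a genotype does not show equal levels. For H2-K1 in B cells, the class with most cells, the log2 change was 0.01 with a 95% interval of -0.52 to 0.53, and in all cDC it was -0.02 with an interval of -0.83 to 0.79.

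**Figure D5:**
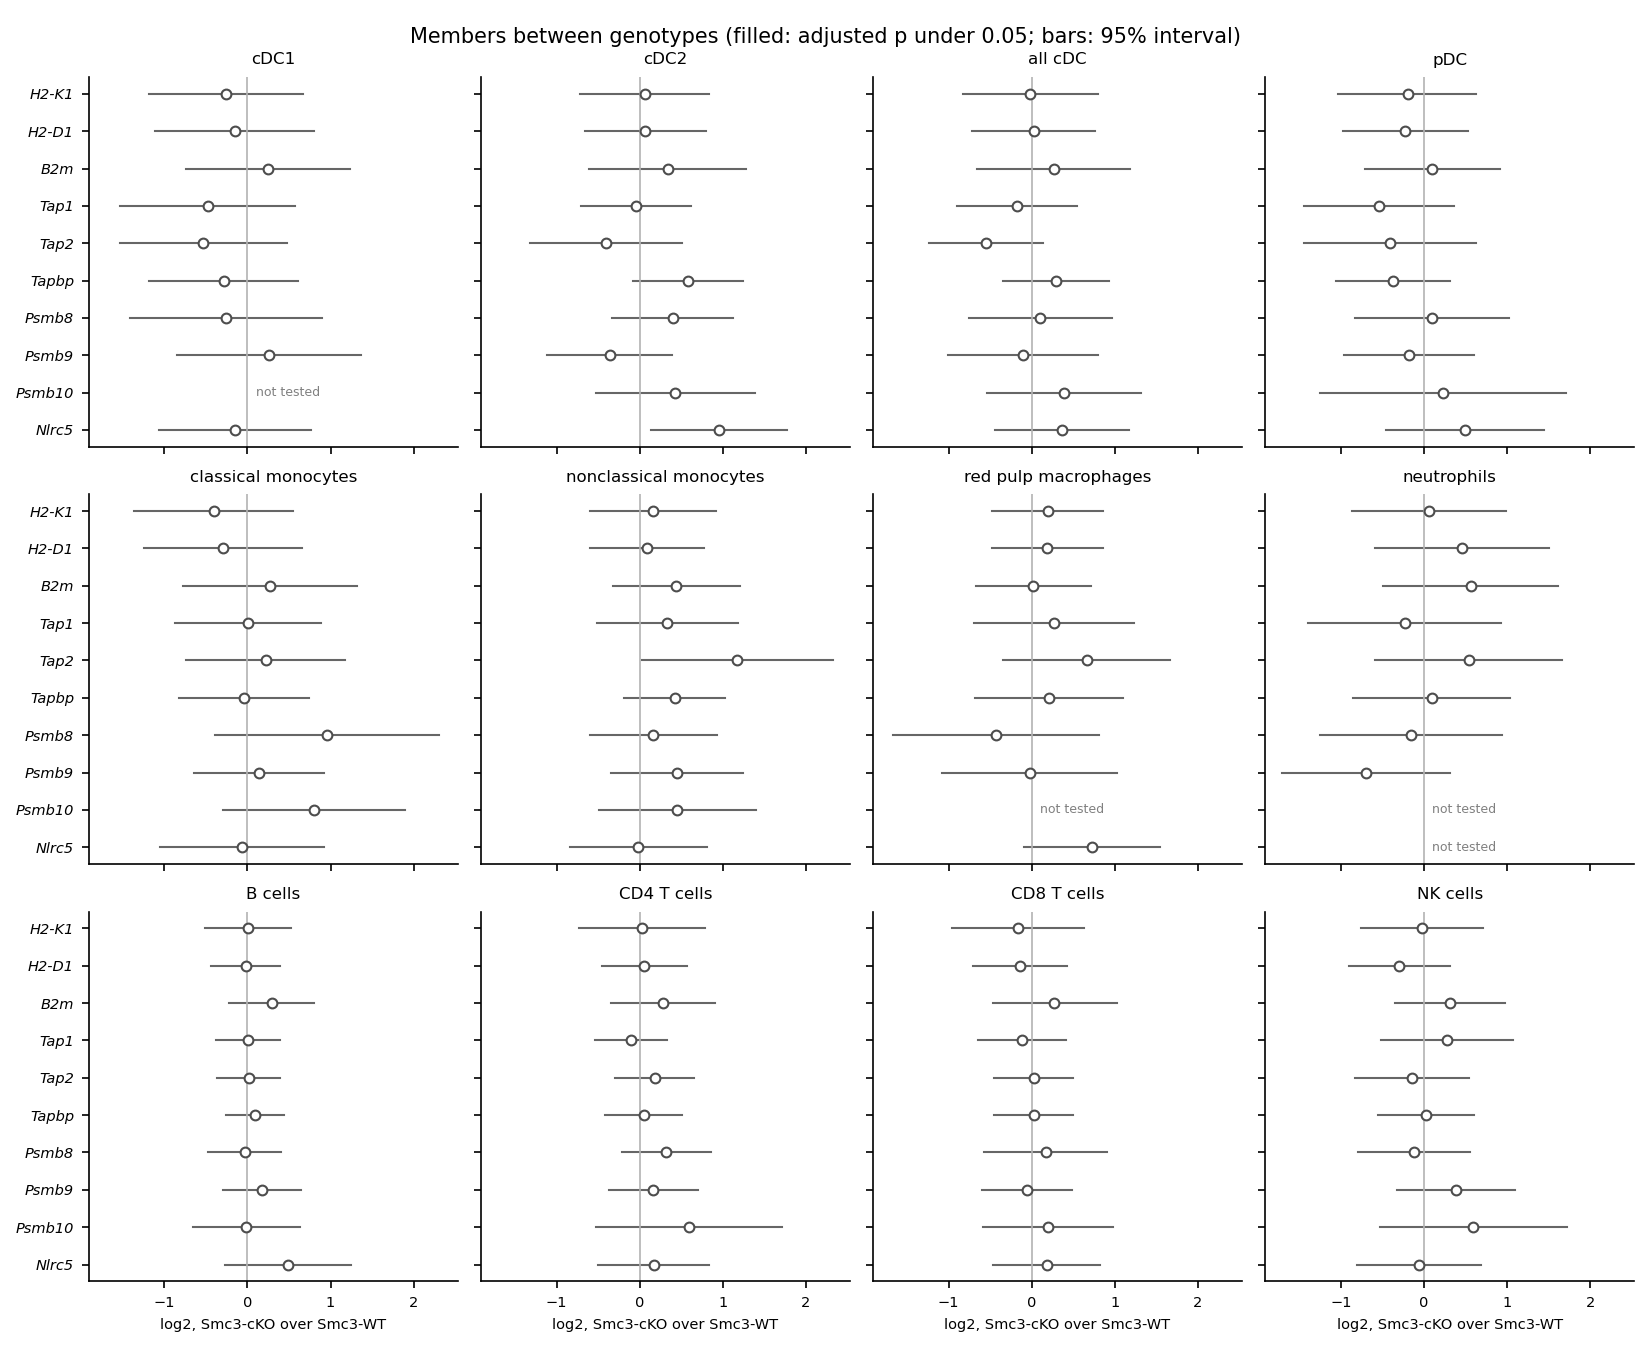
Log2 change of each gene (rows), Smc3-cKO over Smc3-WT, in 12 classes (panels), with 95% intervals; open points did not reach an adjusted p under 0.05. All points are open, and B2m lies at or above 0 in every panel.

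B2m had a positive log2 change in 11 of 11 single classes, between 0.02 and 0.56, and none passed. In 6 of the 11 both Smc3-cKO libraries were above both Smc3-WT ones. How often this holds for genes at large was not counted, so these counts are not shown to be particular to B2m. In CD8 T cells it was at 1324 and 1170 CPM in Smc3-cKO and at 942 and 1081 CPM in Smc3-WT (0.27, 95% interval -0.47 to 1.02, adjusted p = 1). In cDC1 it was at 978 and 819 CPM in Smc3-cKO, against 707 and 700.4 CPM in Smc3-WT (0.25, 95% interval -0.74 to 1.23, adjusted p = 0.999). The classes come from the same 4 libraries and do not count as separate tests of B2m. Of its heavy chains, H2-K1 was positive in 6 of 11 classes, between -0.40 and 0.19, and H2-D1 in 5 of 11, between -0.30 and 0.46.

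Nlrc5 in cDC2 had the lowest adjusted p of all members and classes. It was at 198 and 108 CPM in Smc3-cKO cDC2, against 83.8 and 67.5 CPM in Smc3-WT cDC2, so the genotypes did not overlap (0.96, SE 0.37, 95% interval 0.14 to 1.77, unadjusted p = 0.0259, adjusted p = 0.399). In cDC1 its log2 change was -0.15, with 191 and 178 CPM in Smc3-cKO and 218 and 164 CPM in Smc3-WT. Tap2 in nonclassical monocytes was at 67.4 and 52.7 CPM in Smc3-cKO and at 41.9 and 12.4 CPM in Smc3-WT (1.18, SE 0.55, unadjusted p = 0.0456, adjusted p = 1). In all cDC Tap2 went the other way, with 60.2 and 61.3 CPM in Smc3-cKO and 95.8 and 76.1 CPM in Smc3-WT (-0.56, SE 0.30, adjusted p = 0.886). Psmb8 in classical monocytes was at 163 and 59.0 CPM in Smc3-cKO and at 31.0 and 74.1 CPM in Smc3-WT (0.96, SE 0.60, adjusted p = 1), and without Smc3-WT replicate 2 it passed (1.93, adjusted p = 0.0496). That fit has a lone Smc3-WT library, with 4 Psmb8 UMIs, which is assumed to vary like the Smc3-cKO pair.

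Of 686 values of pathway-list genes tested between genotypes in these 12 comparisons, 0 passed by edgeR and 38 had an unadjusted p under 0.05. The number tested ran from 43 of the 77 genes in cDC1 and in neutrophils to all 77 in B cells, and of the 18 interferon-stimulated genes 1 was tested in cDC2, 1 in cDC1 and 3 in pDC. The interferon-stimulated list of 18 genes summed to 329 and 388.5 CPM in Smc3-cKO cDC2 and 197 and 169 CPM in Smc3-WT cDC2, and to 593 and 486 CPM in Smc3-cKO pDC and 259 and 237 CPM in Smc3-WT pDC. Both Smc3-cKO sums were above both Smc3-WT sums in nonclassical monocytes, neutrophils, CD4 T, CD8 T and NK cells as well, and the genotypes overlapped in cDC1, classical monocytes, red pulp macrophages, B cells and plasma cells. The 7 interferon receptor and kinase genes summed to 1379 and 1476 CPM in Smc3-cKO cDC2, against 2076 and 1902 CPM in Smc3-WT cDC2. Class II sums in pDC were 2119 and 1996 CPM in Smc3-cKO and 4451 and 4654 CPM in Smc3-WT, and B cell markers there summed to 63.7 and 63.4 CPM in Smc3-cKO and to 583 and 68.9 CPM in Smc3-WT. Negative median changes of class II genes by genotype were not particular to pDC. The median log2 change of the tested class II genes was -1.14 in pDC, -1.34 in CD4 T cells, -1.72 in CD8 T cells, -1.17 in NK cells and -1.54 in neutrophils, and it was -0.09 in all cDC and -0.05 in B cells. In CD4 T cells the class II sum was 171 and 162 CPM in Smc3-cKO and 702 and 160 CPM in Smc3-WT, and B cell markers summed to 75.0 and 39.8 CPM in Smc3-cKO and to 334 and 59.2 CPM in Smc3-WT. The CD4 T cell difference thus rested on Smc3-WT replicate 1, while in pDC both Smc3-cKO sums were below both Smc3-WT ones. For CD8 T cells, NK cells and neutrophils only the medians are given here. The part of B cell RNA in these class II values was not tested. The sums carry no test.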

How the data were processed

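The authors deposited raw UMI counts for each gene in each barcode; Cell Ranger 7.0.0 made them, per the file headers. The build was mm10, per the submitters' processing notes. The counts are whole and unscaled, and no barcode has under 500 UMIs. Kept cells had 200 or more genes and no more than 10% mitochondrial UMIs, and Scrublet in scanpy 1.11.5 (0.8% per 1000 barcodes) called 4.05% and 6.41% of the Smc3-cKO and 1.03% and 5.72% of the Smc3-WT cells as doublets, under the rates expected, so some remain. A cell joined the class with the largest share of its marker list detected, with at least 3 markers and the next class at no more than 0.67 of that share. No gene described here is a marker. Counts were summed by library and class, passed through filterByExpr, TMM-scaled and then tested in edgeR 4.0.16 (limma 3.58.1, R 4.3.3; threshold 0.05 after Benjamini-Hochberg adjustment within a comparison), without a block between genotypes and with the library as a block between classes. CPM are not TMM-scaled. The fits were tested on simulated data with the same fixed dispersion for every gene, not estimated from these libraries. Between genotypes, 45% of tested genes changed by a log2 of 1 were recovered in all cDC, 71.7% in CD4 T cells and 96.6% in B cells. At a log2 of 2 it was 90.7% in all cDC and 100% in the other 2 classes. These shares hold for the simulated data only and can be well above what the tests recover in these libraries. All members are named. Of the pathway lists the rule names genes past the threshold by genotype in a DC class and the 3 largest changes of a list in a class pair. The text prints a selection of these. The members, lists and tests were chosen with earlier results of these data known. Alternatives were DESeq2 1.42.0, library totals, no filter, other gates (4 or 2 markers), doublets kept, 5% mitochondrial UMIs, cells added by their 15 nearest neighbours, each library left out, and the replicate number as a block. Same-numbered libraries deviated together in some classes (r of deviations -0.0956 to 0.506), but only 2 pairs exist and the labels do not pair them. Matched RefSeq windows carry GRCm38.p6 coordinates.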

Additional observations from a re-analysis of the deposited data

Results flagged for a closer look

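In 5 members the genotype effect pointed in opposite directions in a pair of classes. Both Smc3-cKO libraries were above both Smc3-WT ones in the first class and below them in the second. The share of all genes with such a pair was not counted, so the 5 are listed as a description and not as a trait of the members. The class pairs were taken after the values were seen, as the largest change each way, and the difference was then tested with edgeR's interaction of class and genotype with the library as a block. Tapbp had a log2 change of 0.58 in cDC2 and -0.38 in pDC, a difference of 0.93 (unadjusted p = 0.00895, adjusted p = 0.262, with 0.513% of genes called). For Tap2 it was 1.18 in nonclassical monocytes and -0.41 in pDC, a difference of 1.68 (unadjusted p = 0.0281, adjusted p = 1, 0 genes called). Psmb9 was at 0.39 in NK cells and -0.70 in neutrophils (1.09, adjusted p = 1, 0.215% called), Psmb8 at 0.40 in cDC2 and -0.43 in red pulp macrophages (1.08, adjusted p = 0.599, 0.223% called) and H2-D1 at 0.07 in cDC2 and -0.30 in NK cells (0.31, adjusted p = 0.81, 0.677% called). None of the 5 differences passed the threshold. With 2 libraries a genotype no single library could be assessed as lying apart from its group.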

How the results depend on the processing

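The numbers of members past the threshold between genotypes stayed at 0 under every alternative run, the replicate block included (0 in all 11 classes, where pairing by replicate number is not given by the labels and the block changed no call), except in classical monocytes without Smc3-WT replicate 2 (leaving out each library in turn gave 0 to 1, with the lone library of a genotype assumed to vary like the others). Between classes, cDC1 over cDC2 had 5 members past the threshold and 3 with DESeq2 (2 to 6 with a library left out), and pDC over cDC had 2, with 1 by DESeq2, the looser gate or no filter (1 to 3). CD8 over CD4 T cells had 1, with 0 by DESeq2 (0 to 2), plasma over B cells 5, with 2 by library totals (1 to 5), and mature DC over cDC 3, with 5 when cells were added by neighbours. Leaving out a library gave 5 to 8 for cDC over B cells (8 with all) and 2 to 5 for NK over CD4 T cells (4 with all). The causes were not tested. Of 2557 values of single members, 2487 kept their side of the threshold, 47 lost a call, 23 gained a call and 0 called values reversed. The 2487 can include uncalled values that changed sign. The stricter gate or 5% mitochondrial filter left too few cells for pDC, classical monocytes, red pulp macrophages, plasma cells and some pairs, and those alternatives were not run. Of the 480 values by class 46 rest on under 10 UMIs, and in B cells, with the most cells, 2 libraries a genotype still left H2-K1 an interval of -0.52 to 0.53.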
